A study of Homo sapiens with 6 samples.

Results

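The BCL2 family and the inhibitor of apoptosis protein BIRC3 are described here in SiHa cells, an established human line of cervical squamous carcinoma that carries human papillomavirus. The 10 genes were BCL2, BCL2L1, MCL1, BCL2A1, BAX, BAK1, BBC3, PMAIP1, BCL2L11 and BIRC3, picked by name out of the 58174 genes in the deposited values. They were chosen with earlier results of these data known. In the OV-BRCA1 group (3 samples) the cells were given GV230-BRCA1, a plasmid for BRCA1 overexpression, and in the NC group (3 samples) they were given GV230 without an insert. RNA was collected after 48 h in both. All 6 samples were exposed to plasmid and to a lipid transfection reagent, so untransfected cells were not compared. The transfection was transient, and the promoter that drives BRCA1 in this plasmid was not given in the sources used here. The measurement was FPKM, the fragments of a transcript per kilobase of its length and per 1 M mapped fragments, summed here over the transcripts of each gene.

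Proteins of the BCL2 family decide whether the outer mitochondrial membrane is opened during apoptosis. BCL2, BCL2L1 (BCL-xL), MCL1 and BCL2A1 keep it closed. BAX and BAK1 form the pores that let cytochrome c out. The BH3-only proteins BBC3 (PUMA), PMAIP1 (NOXA) and BCL2L11 (BIM) bind the protective members, and NOXA binds MCL1 in particular. BIRC3 (cIAP2) is a ubiquitin ligase that acts in TNF receptor and NF-kB signaling, outside the BCL2 family. Cervical carcinoma lines such as SiHa have little p53 protein, because the viral E6 protein directs its degradation, and BBC3, PMAIP1 and BAX are known p53 target genes.

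Sequences are shown for the genes whose regulation or splicing the results turn on. The first pair holds the 250 bases before the RefSeq start of the genes that changed most, BIRC3 (GRCh38.p14, chr11:102317234-102317483, plus strand) and PMAIP1 (chr18:59899746-59899995, plus strand). Capitals mark stretches that match GGG, any 5 bases and CC in turn, a loose form of the NF-kB motif, on either strand, and neighboring matches may overlap.
BIRC3: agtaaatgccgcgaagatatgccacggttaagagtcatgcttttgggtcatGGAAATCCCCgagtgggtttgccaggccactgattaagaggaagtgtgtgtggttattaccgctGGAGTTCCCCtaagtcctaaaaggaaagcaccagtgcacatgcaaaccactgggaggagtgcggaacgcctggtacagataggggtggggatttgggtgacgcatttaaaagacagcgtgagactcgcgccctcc
PMAIP1: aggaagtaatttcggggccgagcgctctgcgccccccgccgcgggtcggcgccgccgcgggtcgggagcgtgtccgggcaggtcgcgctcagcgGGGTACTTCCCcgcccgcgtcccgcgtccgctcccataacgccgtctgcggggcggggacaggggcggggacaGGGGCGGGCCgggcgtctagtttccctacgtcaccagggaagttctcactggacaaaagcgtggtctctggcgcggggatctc
In BIRC3 both matches lay on the minus strand, 199 to 190 and 135 to 126 bases before the start. In PMAIP1 the matches lay 156 to 147 and 83 to 74 bases before the start on the plus strand and 155 to 146 bases before it on the minus strand. The motif is common, since 54.4% of all 35116 promoters in the RefSeq table held it. Of the 9 members with an entry, 6 held it, and MCL1 had no entry. The letters GAAA, any 2 bases and GAAA in turn, a loose form of the interferon response element searched on both strands, stood in 3.02% of all promoters and in 1 member, BCL2A1. A match describes these letters only.

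The second pair holds the place at which the coding sequences of BCL2L1-203, the long form BCL-xL, and BCL2L1-202, the short form BCL-xS, differ in GENCODE 29. Capitals mark the 189 coding bases, positions 376 to 564 counted from the A of the start codon, that the long form has and the short form lacks (hg38, chr20:31721655-31721843, minus strand), and 24 bases are shown on each side. BCL-xL protects cells, whereas BCL-xS is known to promote apoptosis.
BCL2L1-203: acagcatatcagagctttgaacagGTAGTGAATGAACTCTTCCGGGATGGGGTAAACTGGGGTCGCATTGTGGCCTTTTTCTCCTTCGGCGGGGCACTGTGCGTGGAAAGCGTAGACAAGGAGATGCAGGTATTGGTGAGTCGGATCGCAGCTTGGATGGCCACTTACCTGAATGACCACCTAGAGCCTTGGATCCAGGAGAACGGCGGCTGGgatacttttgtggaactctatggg
BCL2L1-202: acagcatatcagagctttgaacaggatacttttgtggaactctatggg

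The depth behind the values was estimated at 14.18 to 16.7 M fragments per OV-BRCA1 sample and 16.17 to 20.18 M per NC sample. Mitochondrial genes took 14.8% to 17.2% of the FPKM of OV-BRCA1 samples and 21.0% to 23.2% of that of NC samples, and scaling to nuclear protein-coding genes left the 6 members called below unchanged in number and direction (4 higher and 2 lower). BRCA1 itself was at 35.7, 40.8 and 34.9 FPKM in the OV-BRCA1 samples and at 20.1, 14.9 and 21.7 FPKM in the NC samples, so every OV-BRCA1 sample was above every NC sample. Reads from the plasmid and from the chromosomal gene cannot be told apart. Of 12 markers listed for epithelial cells, not all of them squamous, KRT5 and TP63 stayed below 0.5 FPKM in all samples. The summed level was 1830 to 1970 FPKM in the OV-BRCA1 group and 2240 to 2320 FPKM in the NC group. KRT17, the highest marker, was lower (1030 ± 90.3 against 1430 ± 8.67 FPKM). Of the 8 tested markers, 4 were called higher (KRT18, KRT8, EPCAM and KRT6A) and 1 lower (KRT17). Over all tested genes, 16.4% were called higher and 18.9% lower. KRT6A reached the level needed for the test only in the OV-BRCA1 group, so it could hardly be called lower. It was at 1.1, 0.979 and 1.19 FPKM there and at 0.0278, 0.25 and 0.241 FPKM in the NC samples. Among markers of other cells, LUM, PTPRC, MS4A1, VWF and KDR were listed at 0 in all samples. The sum of the 9 leukocyte markers was 31.4 to 37.2 FPKM in the OV-BRCA1 group and 22.2 to 24 FPKM in the NC group, with CD68 higher and CD14 lower in the OV-BRCA1 group and the other 7 below 0.5 FPKM in all samples. The 7 fibroblast markers summed to 3.34 to 3.84 FPKM and 6.15 to 6.75 FPKM, respectively, most of it COL1A1 (3.28 and 6.39 FPKM) with the other 6 below 0.5 FPKM in all samples, and the 4 endothelial markers to 0.761 to 1.45 FPKM and 0.629 to 0.788 FPKM. The part of these markers in the results was not tested.

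Expression of the members was compared to see how the genes that control apoptosis stood after BRCA1 transfection. BIRC3, PMAIP1, BCL2L1 and MCL1 were higher in the OV-BRCA1 group, and BAX and BBC3 were lower. BAK1 and BCL2L11 did not pass the test, and BCL2 and BCL2A1 were too low to enter it. A gene entered the test with at least 0.5 FPKM in at least 3 samples, which 16321 genes did, and all 8 of the tested members met this in both groups. The test was that of limma on log2(FPKM + 1), with Benjamini-Hochberg adjustment over the 16321 genes, and a call needed an adjusted p-value below 0.05. By this rule 6 of the 8 tested members were called, against 35.3% of all tested genes. Because the members were chosen with earlier results of these data known, this share and those that follow are a description and test nothing. With the additional demand of an absolute log2 fold change above 1, the criterion for DEGs, BIRC3 and PMAIP1 were called (2 of 8), both higher, against 2.89% of all tested genes called higher by this criterion. No tested member was called lower by it (limma, 0 of 8, beside 2 of 8 lower at an unadjusted p below 0.05 without the fold demand), against 1.1% of all tested genes. The groups did not overlap in 6 of the 8 tested members, against 50.8% of all tested genes. In 4 of them the lowest OV-BRCA1 sample exceeded the highest NC sample, against 23.4% of all tested genes, and in 2 the order was the opposite, against 27.4%. Across the 8 tested members the median log2 fold change came to 0.15, beside -0.04 over all tested genes, of which the 5th and 95th percentiles were -0.69 and 0.77. In bulk RNA a difference in the number of cells that express a gene and a difference in RNA per cell cannot be told apart.

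**Figure D1:**
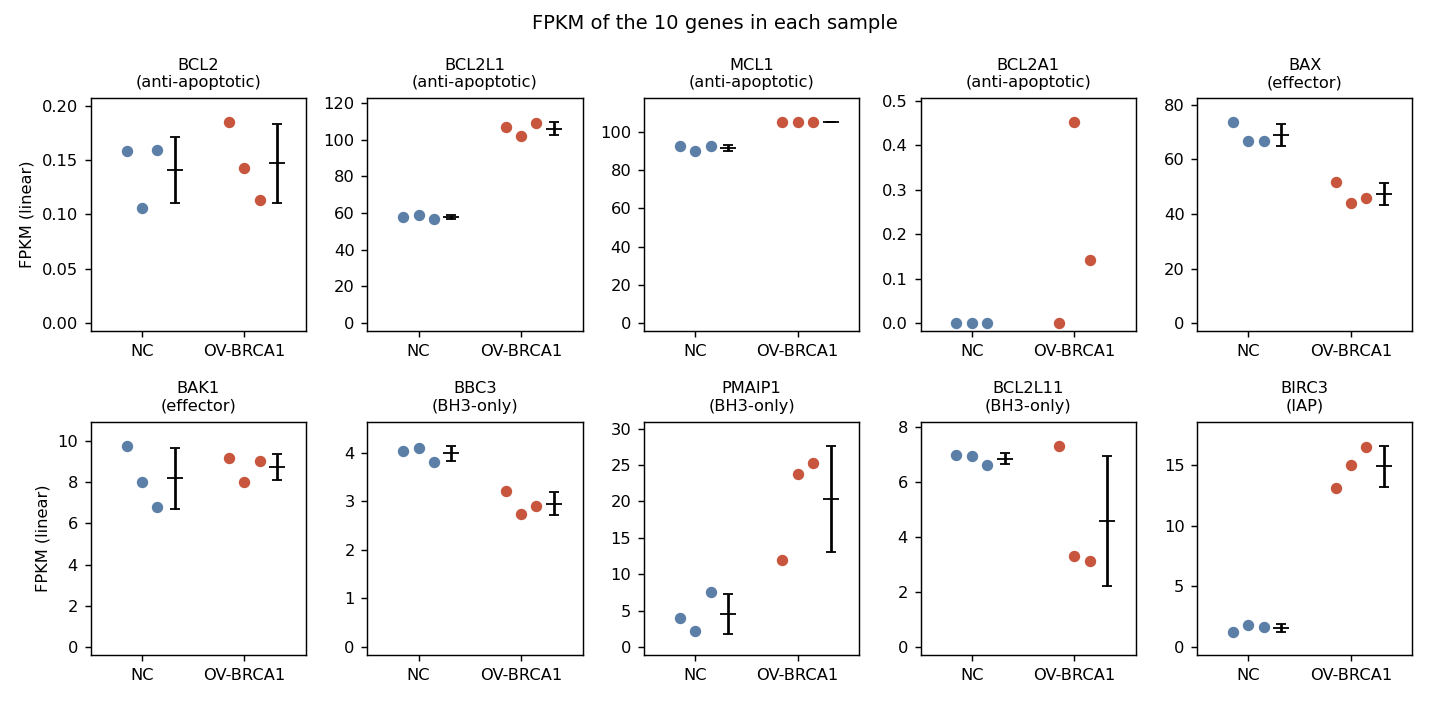
FPKM (linear axis, 1 panel per gene with its own scale) of the 10 genes in the 3 NC and 3 OV-BRCA1 samples, as points, with the mean and SD beside them except where a sample is listed at 0. The groups are apart for BCL2L1, MCL1, BAX, BBC3, PMAIP1 and BIRC3, and they overlap for BCL2, BCL2A1, BAK1 and BCL2L11, where 1 OV-BRCA1 sample lies at 7.31 FPKM and the other OV-BRCA1 samples near 3.

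Among the protective members, BCL2L1 (ENSG00000171552, hg38 chr20:31664452-31723989, minus strand, 9 transcripts) changed most. Its level was 107, 102 and 109 FPKM in the OV-BRCA1 samples and 58.0, 59.1 and 56.6 FPKM in the NC samples. The means of 106 ± 3.7 and 57.9 ± 1.24 FPKM (SD, n = 3) differed by 1.83-fold, and no NC sample came near the lowest OV-BRCA1 sample. The log2 fold change was 0.86 (SE 0.05, 95% interval 0.75 to 0.97, limma with Benjamini-Hochberg adjusted p = 7.24e-05), which lay below the fold criterion for DEGs. An antisense gene, ABALON, overlaps BCL2L1 and had 5.94 FPKM in the OV-BRCA1 group and 3.97 FPKM in the NC group. Whether the authors' values used strand was not given in the sources used here.

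MCL1 (ENSG00000143384, hg38 chr1:150574551-150579738, minus strand), whose protein is short-lived and has to be made continually, moved by a small but even amount. It was at 105, 105 and 105 FPKM in the OV-BRCA1 samples and at 92.4, 89.9 and 92.4 FPKM in the NC samples. The samples of each group lay close together and the groups did not overlap. The means of 105 ± 0.177 and 91.6 ± 1.46 FPKM (SD, n = 3) differed by 1.15-fold, with a log2 fold change of 0.20 (SE 0.04, 95% interval 0.10 to 0.29, limma with Benjamini-Hochberg adjusted p = 0.0101).

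BCL2 (ENSG00000171791, hg38 chr18:63123346-63320128, minus strand), the founding member of the family, was barely detected. It had 0.185, 0.143 and 0.113 FPKM in the OV-BRCA1 samples and 0.158, 0.106 and 0.159 FPKM in the NC samples, which stands for about 9.9 to 17.5 fragments per sample. The groups overlapped, and without the filter on low values the log2 fold change was 0.01 (SE 0.04, limma with Benjamini-Hochberg adjusted p = 0.924). BCL2A1 (ENSG00000140379, hg38 chr15:79960889-79971446, minus strand), a known NF-kB target gene, was listed at 0 in all 3 NC samples and at 0, 0.452 and 0.141 FPKM in the OV-BRCA1 samples, at most about 7.8 fragments. A difference was not detectable for BCL2A1 at this depth (limma without the filter, Benjamini-Hochberg adjusted p = 0.339).

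The 4 protective genes together had 213, 208 and 214 FPKM in the OV-BRCA1 samples and 151, 149 and 149 FPKM in the NC samples. BCL2L1 made up 50.1% ± 0.927 of this sum in OV-BRCA1 samples and 38.7% ± 0.855 in NC samples, and MCL1 made up 49.7% ± 0.83 and 61.2% ± 0.836 (SD, n = 3). Thus MCL1 was the leading protective transcript in the NC samples, whereas BCL2L1 and MCL1 overlapped in the OV-BRCA1 samples. FPKM is per length, so these levels can be set beside each other as a description. The other protective genes of the family were BCL2L2 (BCL-w), with a log2 fold change of -0.58 (limma with Benjamini-Hochberg adjusted p = 0.263), and BCL2L10, with 0.07 (adjusted p = 0.566), so that 2 of the 4 tested genes of this class were called and both were higher, beside 16.4% of all tested genes called higher.

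Of the pore-forming effectors, BAX (ENSG00000087088, hg38 chr19:48954815-48961798, plus strand, 13 transcripts) was lower in the OV-BRCA1 group. It was at 51.8, 44.2 and 45.8 FPKM in the OV-BRCA1 samples and at 73.7, 66.7 and 66.7 FPKM in the NC samples. All OV-BRCA1 samples lay below all NC samples. The means of 47.3 ± 3.99 and 69.0 ± 4.05 FPKM (SD, n = 3) gave a ratio of 0.685, and the log2 fold change was -0.54 (SE 0.08, 95% interval -0.72 to -0.35, limma with Benjamini-Hochberg adjusted p = 0.00305). BAX was called lower, beside 18.9% of all tested genes called lower.

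BAK1 (ENSG00000030110, hg38 chr6:33572547-33580293, minus strand), the effector that resides on mitochondria in healthy cells, was at 9.19, 8.02 and 9.01 FPKM in the OV-BRCA1 samples and at 9.77, 8.0 and 6.81 FPKM in the NC samples. The groups overlapped. The log2 fold change was 0.09 (95% interval -0.22 to 0.41, limma with Benjamini-Hochberg adjusted p = 0.613), and it was -0.02 without NC replicate 3, so no direction is given for BAK1. For BOK, a more distant effector, the log2 fold change was 0.02 (adjusted p = 0.878). BAX and BAK1 together had 56.0 ± 4.49 FPKM in the OV-BRCA1 group and 77.2 ± 5.45 FPKM in the NC group (SD, n = 3).

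The ratio of BCL2L1 to BAX put both differences into 1 number, as a description. It was 2.07, 2.3 and 2.38 FPKM of BCL2L1 per FPKM of BAX in the OV-BRCA1 samples and 0.787, 0.886 and 0.849 in the NC samples. Summed over all transcripts, BAX exceeded BCL2L1 in each NC sample, and BCL2L1 exceeded BAX in each OV-BRCA1 sample. The order in the NC samples rested on BAX transcripts that are not protein-coding. Protein-coding BAX transcripts alone summed to 49.3, 44.8 and 42.3 FPKM in the NC samples, below BCL2L1 at 58.0, 59.1 and 56.6 FPKM. These are transcript levels, and protein was not measured in these files.

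Of the BH3-only members, PMAIP1 (ENSG00000141682, hg38 chr18:59899948-59904306, plus strand) was higher after BRCA1 transfection but spread widely. It was at 12, 23.8 and 25.3 FPKM in the OV-BRCA1 samples and at 3.97, 2.18 and 7.58 FPKM in the NC samples. The lowest OV-BRCA1 sample was above the highest NC sample, although samples of the same group differed by several FPKM. The means of 20.4 ± 7.3 and 4.58 ± 2.75 FPKM (SD, n = 3) differed by 4.45-fold, with a log2 fold change of 1.99 (SE 0.42, 95% interval 0.97 to 3.01, limma with Benjamini-Hochberg adjusted p = 0.0134). Set against MCL1, the protein it is known to bind, PMAIP1 reached 11.4%, 22.6% and 24.1% of the MCL1 FPKM in the OV-BRCA1 samples and 4.3%, 2.42% and 8.2% in the NC samples.

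BBC3 (ENSG00000105327, hg38 chr19:47220822-47232766, minus strand), whose protein binds all protective members, was lower in the OV-BRCA1 group. It was at 3.21, 2.75 and 2.90 FPKM in the OV-BRCA1 samples and at 4.05, 4.11 and 3.81 FPKM in the NC samples, about 59.9 to 131 fragments per sample. The groups did not overlap. The means of 2.95 ± 0.234 and 3.99 ± 0.159 FPKM (SD, n = 3) gave a ratio of 0.741, and the log2 fold change was -0.34 (SE 0.08, 95% interval -0.53 to -0.14, limma with Benjamini-Hochberg adjusted p = 0.022). The call was near the threshold. Leaving out OV-BRCA1 replicate 2 (adjusted p = 0.0645), OV-BRCA1 replicate 3 (0.061), NC replicate 1 (0.0648) or NC replicate 2 (0.0681) ended it.

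BCL2L11 (ENSG00000153094, hg38 chr2:111119378-111168447, plus strand, 25 transcripts), whose protein both binds protective members and activates BAX, was at 7.31, 3.32 and 3.11 FPKM in the OV-BRCA1 samples and at 6.99, 6.94 and 6.61 FPKM in the NC samples. The first OV-BRCA1 sample was above all NC samples, and the other OV-BRCA1 samples were below all of them. The log2 fold change was -0.57 (SE 0.27, 95% interval -1.22 to 0.08) and was not called (limma with Benjamini-Hochberg adjusted p = 0.147). Without OV-BRCA1 replicate 1 it was -0.90 (adjusted p = 0.00208), so that 1 sample decided the call. The same sample had the lowest PMAIP1 and BIRC3 and the highest BAX and BBC3 of its group. BCL2L11 also overlaps a long noncoding RNA gene on the opposite strand, MIR4435-2HG, which had 129 FPKM in the OV-BRCA1 group and 46.8 FPKM in the NC group, and without knowledge of strand reads of the shared stretch cannot be told apart.

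The BH3-only genes moved both ways. Of 6 tested genes of this class, 3 were higher and 2 were lower, with a median log2 fold change of -0.06, beside 16.4% of all tested genes higher and 18.9% lower. Of the 3 that are not members, 2 were higher and 1 was lower. BIK rose from 2.11 ± 0.308 to 4.18 ± 0.862 FPKM (log2 fold change 0.73, limma with Benjamini-Hochberg adjusted p = 0.0115). BID, which caspase-8 cleaves to link death receptors to mitochondria, rose from 11.1 ± 0.486 to 13.1 ± 0.558 FPKM (0.22, adjusted p = 0.0403). BAD, which binds BCL2L1 unless it is phosphorylated, fell from 36.1 ± 8.0 to 21.7 ± 4.31 FPKM (-0.70, adjusted p = 0.0372). BMF and HRK were too low to enter the test.

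**Figure D2:**
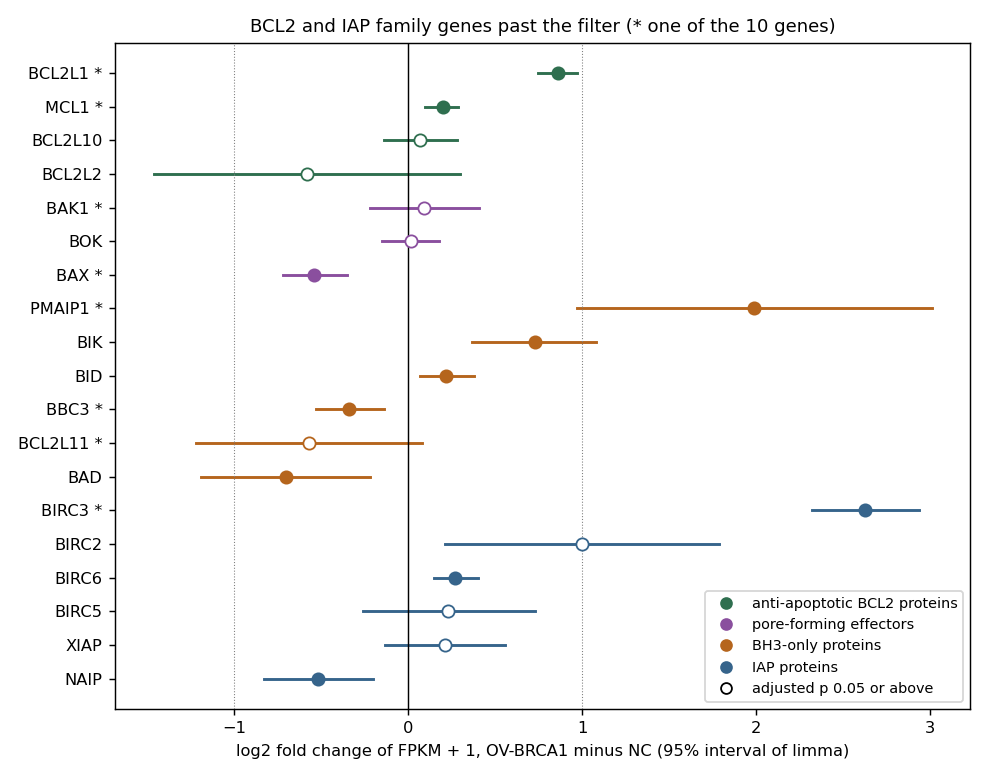
Log2 fold change of FPKM + 1 (OV-BRCA1 minus NC, points) with the 95% interval of limma (lines) for the 19 tested genes of the BCL2 and IAP families, colored by class. Filled points passed an adjusted p-value of 0.05, open points did not, an asterisk marks 1 of the 10 genes, and dotted lines stand at -1 and 1. BIRC3 at 2.63 and PMAIP1 at 1.99 lie farthest to the right.

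BIRC3 (ENSG00000023445, hg38 chr11:102317450-102339403, plus strand, 7 transcripts) showed the largest difference of the 8 tested members. It was at 13.1, 15 and 16.5 FPKM in the OV-BRCA1 samples and at 1.21, 1.81 and 1.67 FPKM in the NC samples, about 950 to 1240 and 81.7 to 108 fragments per sample. The lowest OV-BRCA1 sample was several times above the highest NC sample. The means of 14.9 ± 1.73 and 1.57 ± 0.317 FPKM (SD, n = 3) differed by 9.5-fold, and the log2 fold change was 2.63 (SE 0.13, 95% interval 2.32 to 2.94, limma with Benjamini-Hochberg adjusted p = 4.61e-05). The fold change on the log2(FPKM + 1) scale is smaller than that of the means, because 1 FPKM is added to a low level. The fragment numbers are estimates and cover counting error only.

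The other IAP genes moved less or did not pass the test. Of 6 tested IAP genes, BIRC3 and BIRC6 were higher and NAIP was lower, beside 16.4% of all tested genes higher and 18.9% lower. BIRC2 (cIAP1), the neighbor of BIRC3 on chromosome 11 and its closest relative, had 35.8 ± 10.2 FPKM in the OV-BRCA1 group and 17.8 ± 7.72 FPKM in the NC group (SD, n = 3). Its samples overlapped, and its log2 fold change of 1.00 did not pass (limma with Benjamini-Hochberg adjusted p = 0.0565). BIRC6 rose from 15.6 ± 0.208 to 19.0 ± 0.336 FPKM (0.27, adjusted p = 0.00883), and NAIP fell from 1.89 ± 0.263 to 1.03 ± 0.267 FPKM (-0.52, adjusted p = 0.0246). For XIAP, the direct caspase inhibitor, the log2 fold change was 0.21 (adjusted p = 0.289), and for BIRC5 (survivin) it was 0.23 (adjusted p = 0.42). BIRC7 and BIRC8 did not enter the test.

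The genes whose profile over the 6 samples was nearest to BIRC3, by the root mean square distance of log2(FPKM + 1) from the NC mean, were SLC15A3 (distance 0.107), SAMD9 (0.129), AC139491.2 (0.141), SAMD9L (0.141) and ETV7 (0.146). SLC15A3, a transporter of small peptides and histidine, was at 20.6, 23.1 and 23.1 FPKM in the OV-BRCA1 samples and at 2.73, 3.02 and 2.64 FPKM in the NC samples. All 5 genes were chosen for this likeness, which is a description.

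The order of levels within a group, with each gene summed over all its transcripts, was also compared. In the NC group MCL1 led with 91.6 FPKM, followed by BAX (69.0 FPKM) and BCL2L1 (57.9 FPKM), each apart from the next in all samples. BAK1, BCL2L11, PMAIP1 and BBC3 followed at 8.19, 6.85, 4.58 and 3.99 FPKM, and neighbors in this order overlapped. BIRC3, BCL2 and BCL2A1 came last. In the OV-BRCA1 group BCL2L1 and MCL1 led and overlapped, BAX followed, and PMAIP1 and BIRC3 stood above BAK1, with PMAIP1 and BIRC3 overlapping each other and BIRC3 apart from BAK1. BCL2L11 and BBC3 overlapped, as did BCL2A1 and BCL2 at the end of the order.

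Several of these genes make proteins of different effect by splicing, so single transcripts were compared next. The fit was the same limma test on 50925 transcripts. A transcript was described if its mean was at least 1 FPKM and at least 10% of its gene, which held for 14 transcripts of 8 genes. Of these, 4 were called (2 higher and 2 lower), beside 5.47% of all tested transcripts. The groups did not overlap in 8 of 14, beside 30.0% of all tested transcripts. The 14 were selected for their level and the 50925 were not, so these shares are not alike and test nothing. BIRC3-201 in the NC group (0.905 FPKM) and BBC3-203 in the OV-BRCA1 group (0.837 FPKM) had means below 1 FPKM, so they were described through the other group. Estimates of transcripts that share most of their sequence are less certain than the sum of the gene.

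BIRC3-201, with a coding sequence of 1812 bases, held 90.8% of the BIRC3 level over all samples and carried the difference. Its share was smaller in the NC group, as in NC replicate 2 with 0.664 of 1.81 FPKM. It was at 11.4, 14.2 and 16.4 FPKM in the OV-BRCA1 samples and at 1.13, 0.664 and 0.922 FPKM in the NC samples, which did not overlap (log2 fold change 2.97, limma with Benjamini-Hochberg adjusted p = 0.00131). MCL1-202, with 1050 coding bases and 92.3% of the MCL1 level, had 98.9 ± 1.6 FPKM in the OV-BRCA1 group and 82.6 ± 0.545 FPKM in the NC group (0.26, adjusted p = 0.0407). PMAIP1-202 held 92.6% of the PMAIP1 level and was at 10.3, 22.9 and 24.5 FPKM in the OV-BRCA1 samples and at 3.05, 1.43 and 7.14 FPKM in the NC samples. These groups were apart, but the transcript did not pass the test over all transcripts (log2 fold change 2.14, adjusted p = 0.0878).

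For BCL2L1 the sum of the gene was far steadier than its parts. BCL2L1-203, the main long form, was at 79.5, 44.4 and 82.2 FPKM in the OV-BRCA1 samples and at 41.4, 43.2 and 14.1 FPKM in the NC samples (log2 fold change 1.14, SE 0.49, limma with Benjamini-Hochberg adjusted p = 0.252). Summed over the transcripts with the full coding sequence of 699 bases, the long form was at 82.7, 72.7 and 87.2 FPKM in the OV-BRCA1 samples and at 44.5, 45.9 and 27.2 FPKM in the NC samples, which did not overlap. The short form BCL2L1-202, with 510 coding bases and without the stretch in capitals above, was at 12.1, 22.6 and 12.1 FPKM and at 7.41, 7.2 and 24.4 FPKM, respectively. These groups overlapped (log2 fold change 0.40, adjusted p = 0.71). The short form took 11.3%, 22.2% and 11.1% of BCL2L1 in the OV-BRCA1 samples and 12.8%, 12.2% and 43.2% in the NC samples. NC replicate 3 and OV-BRCA1 replicate 2 thus stood apart from the others in how the gene was divided, while their gene sums of 56.6 and 102 FPKM lay close to those of their groups.

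For BAX, protein-coding and retained-intron transcripts had lower sums in the OV-BRCA1 samples, and transcripts marked for nonsense-mediated decay overlapped between groups (3.43 ± 2.15 and 4.29 ± 1.83 FPKM). The protein-coding transcripts summed to 33.9 ± 0.7 FPKM in the OV-BRCA1 group and 45.5 ± 3.57 FPKM in the NC group (SD, n = 3). The retained-intron transcripts, which as a rule give no protein, summed to 11.2, 8.52 and 10.0 FPKM in the OV-BRCA1 samples and to 21.0, 18.8 and 18.1 FPKM in the NC samples. BAX-207, a retained-intron transcript, and BAX-202, with 576 coding bases, were called lower with log2 fold changes of -0.91 (limma with Benjamini-Hochberg adjusted p = 0.0379) and -0.91 (adjusted p = 0.0407). BAX-201, with 654 coding bases and the largest share of the gene (33.0%), had 16.1 ± 1.98 and 22.3 ± 1.69 FPKM (log2 fold change -0.45), which were apart but not called (adjusted p = 0.0965). BAX-213, with 420 coding bases, was at 0.283 FPKM in NC replicate 3 and at 9.09 to 12.5 FPKM in the other samples, so that its mean was 10.6 FPKM in the OV-BRCA1 group and 7.67 FPKM in the NC group (adjusted p = 0.596, limma with Benjamini-Hochberg adjustment).

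For BBC3, BBC3-203, with 579 coding bases and 52.7% of the gene over all samples, was at 1.61, 0.736 and 0.16 FPKM in the OV-BRCA1 samples and at 2.87, 3.1 and 2.49 FPKM in the NC samples. Its share differed by group, with means of 0.837 of 2.95 FPKM in the OV-BRCA1 group and 2.82 of 3.99 FPKM in the NC group. All other BBC3 transcripts overlapped between groups. Among them, protein-coding BBC3-202 was at 0, 0.8 and 1.396 FPKM in the OV-BRCA1 samples and at 0 in all NC samples. For BBC3-203 the groups were apart, and the difference did not pass the test (log2 fold change -1.13, SE 0.31, limma with Benjamini-Hochberg adjusted p = 0.109). For BCL2L11, the high value of OV-BRCA1 replicate 1 was also seen in BCL2L11-206, with 594 coding bases, which was at 4.59, 1.84 and 0.861 FPKM in the OV-BRCA1 samples and at 4.31, 4.91 and 3.73 FPKM in the NC samples (log2 fold change -0.78, adjusted p = 0.345).

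**Figure D3:**
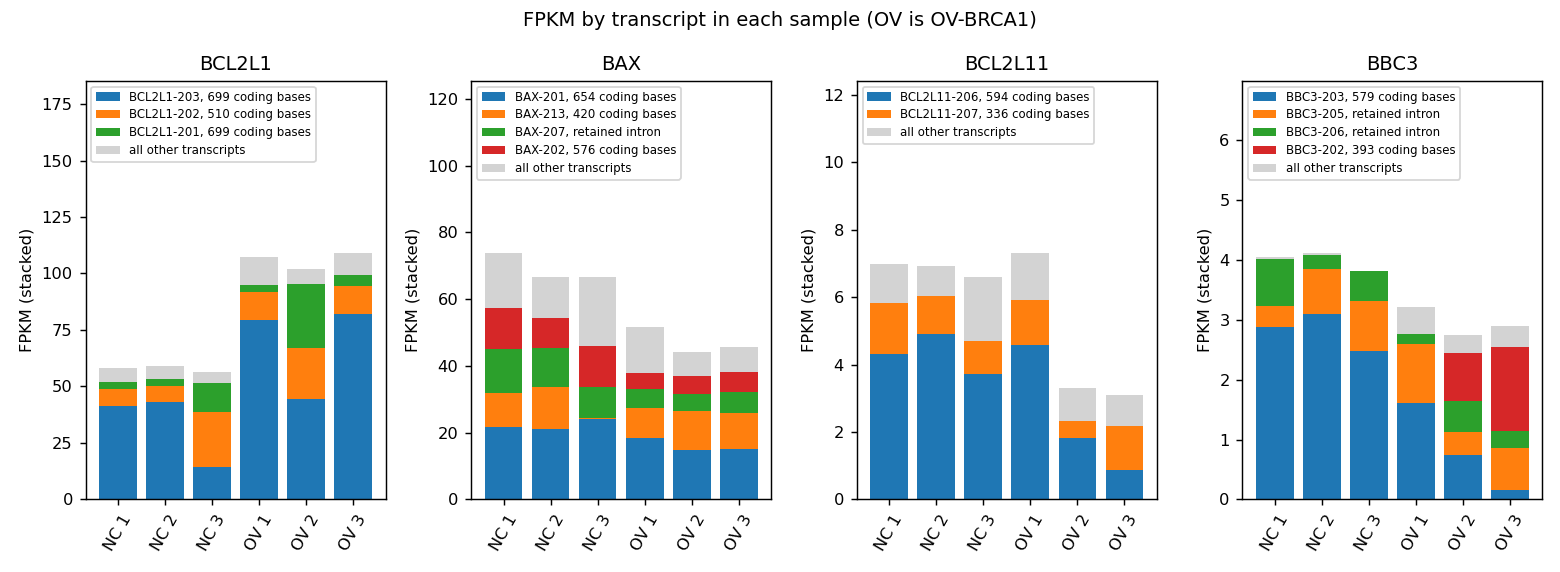
Stacked FPKM of the main transcripts of BCL2L1, BAX, BCL2L11 and BBC3 in each NC and OV-BRCA1 (OV) sample, with all other transcripts of the gene in gray. For BCL2L1 the bar heights are alike within a group (56.6 to 59.1 FPKM in NC and 102 to 109 FPKM in OV) while the division among transcripts is not, and for BCL2L11 the bar of OV replicate 1 is as high as the NC bars.

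The genes that work next to these members were described from lists of known function. Of 13 genes of the apoptosome and its regulators, all tested, 4 were higher and 1 was lower (median log2 fold change 0.22), beside 16.4% of all tested genes higher and 18.9% lower. XAF1, an antagonist of XIAP, was at 52.7, 57.4 and 52.6 FPKM in the OV-BRCA1 samples and at 11.5, 12.8 and 11.1 FPKM in the NC samples (log2 fold change 2.11, limma with Benjamini-Hochberg adjusted p = 1.05e-05). CYCS, which encodes cytochrome c, rose from 37.1 ± 0.0391 to 47.8 ± 2.4 FPKM (0.36, adjusted p = 0.00366).

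Of 14 tested partners of BIRC3 in TNF receptor and NF-kB signaling, 3 were higher and 2 were lower (median 0.13), shares near the 16.4% and 18.9% of all tested genes. TNFAIP3 (A20), a ubiquitin-editing enzyme that restrains NF-kB, rose from 32.2 ± 2.14 to 55.1 ± 3.4 FPKM (log2 fold change 0.76, limma with Benjamini-Hochberg adjusted p = 0.000656). MAP3K14 (NIK), the kinase of the noncanonical NF-kB pathway that BIRC3 helps to degrade, rose from 4.02 ± 0.228 to 6.71 ± 0.655 FPKM (0.62, adjusted p = 0.00346). TRADD, an adaptor of TNF receptor 1, fell from 26.0 ± 1.36 to 18.2 ± 1.22 FPKM (-0.49, adjusted p = 0.00331).

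Of 9 tested genes listed for the turnover or transcription of MCL1, 1 was higher and 2 were lower (median -0.09), beside 16.4% of all tested genes higher and 18.9% lower. USP9X, a deubiquitinase of MCL1, fell from 28.7 ± 0.311 to 23.0 ± 0.646 FPKM (log2 fold change -0.31, limma with Benjamini-Hochberg adjusted p = 0.00461). CDK9, a kinase needed for transcript elongation, fell from 32.2 ± 2.33 to 27.6 ± 0.775 FPKM (-0.22, adjusted p = 0.0486). DESI1, an enzyme that removes SUMO, rose from 24 ± 0.0242 to 43.1 ± 1.75 FPKM (0.82, adjusted p = 0.000127).

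Of 15 tested genes of p53-driven apoptosis, 2 were higher and 7 were lower (median log2 fold change -0.34), beside 16.4% of all tested genes higher and 18.9% lower. This list holds BBC3, PMAIP1 and BAX, and without them 1 of 12 was higher and 5 were lower. PMAIP1 moved against the larger number of called genes of its list. DDB2, a DNA damage recognition factor, fell from 29.4 ± 0.634 to 16.0 ± 0.419 FPKM (log2 fold change -0.84, limma with Benjamini-Hochberg adjusted p = 0.000123). PERP, a membrane protein of desmosomes, fell from 110 ± 2.9 to 73.0 ± 0.941 FPKM (-0.58, adjusted p = 0.000229), and TP53I3, an oxidoreductase, fell from 15.6 ± 1.59 to 8.01 ± 0.665 FPKM (-0.88, adjusted p = 0.00118).

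Of 8 tested distant relatives of BCL2, 4 were higher and 1 was lower (median 0.15), beside 16.4% of all tested genes higher and 18.9% lower. BNIP3, a mitophagy receptor, was at 37.0, 36.3 and 37.2 FPKM in the OV-BRCA1 samples and at 19.8, 20.5 and 20.7 FPKM in the NC samples (log2 fold change 0.83, limma with Benjamini-Hochberg adjusted p = 9.83e-05). BNIP1 rose from 5.43 ± 0.351 to 7.50 ± 0.739 FPKM (0.40, adjusted p = 0.0181), and BCL2L12 fell from 49.5 ± 3.52 to 39.0 ± 3.55 FPKM (-0.34, adjusted p = 0.0242).

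The members differed in how far their values depended on the way they were computed. BIRC3 and MCL1 kept their call in each of 14 other settings, with log2 fold changes of 2.53 to 3.82 and 0.16 to 0.26. BCL2L1, BAX and PMAIP1 were called at the gene level in 13 of 14 settings and were not called when the highest transcript stood for the gene, with p-values adjusted over 50925 transcripts in place of 16321 genes. The log2 fold changes there were 1.14, -0.45 and 2.14, and which of the 2 changes ended the calls was not tested.

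**Figure D4:**
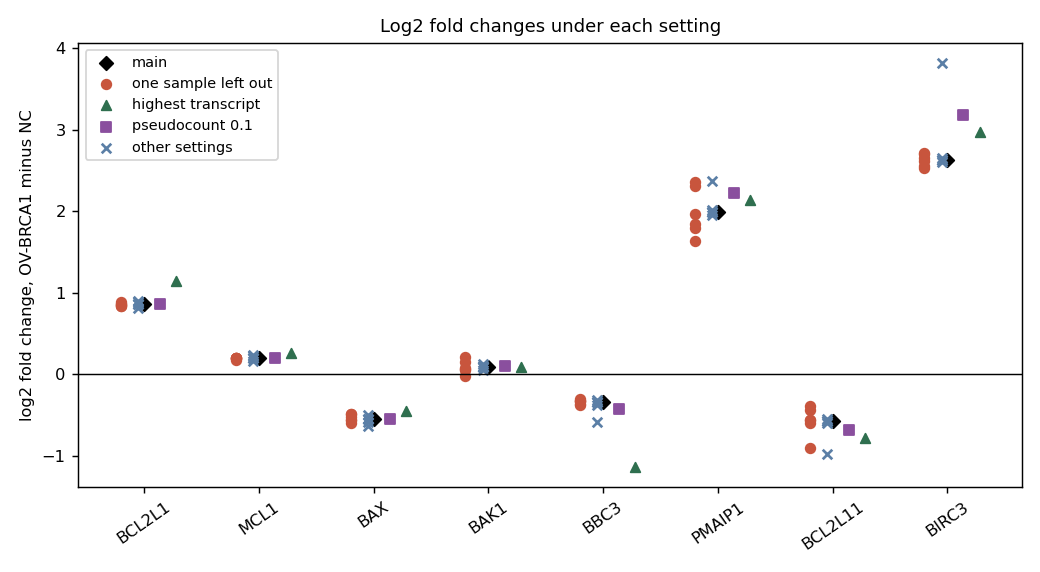
Log2 fold change (OV-BRCA1 minus NC) of the 8 tested members in the main fit (diamonds), with 1 sample left out (circles), for the highest transcript (triangles), with a pseudocount of 0.1 (squares) and in the other settings (crosses). BIRC3, BCL2L1, MCL1 and PMAIP1 lie above 0 and BAX, BBC3 and BCL2L11 below 0 in all settings shown, while BAK1 lies on both sides.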

How the data were processed

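mRNA of 6 SiHa samples was purified with capture beads, sequenced, and processed by the authors to FPKM, with reads that held adapters, unknown nucleotides or low quality removed first. Per the labels, FastQC and HISAT2 were used with the hg38 genome. The quantification tool, the annotation and the use of strand were not given in the sources used here. The deposited FPKM values covered 199167 transcripts of 58174 genes, and files of single samples and of the series held the same values. Counts were not among the files used here, so no count test was run.

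Genes were named and placed by GENCODE release 29, where 198868 of these transcripts were found, and FPKM was summed per gene. Depth was estimated from low values of 14223 single-transcript genes between 600 and 5000 bases long. Because 30.7% to 36.7% of these values lay within 0.1 of a whole number of fragments, whole reads were not recovered.

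Groups came from the transfection given in the labels. The OV-BRCA1 and NC groups were compared with limma 3.58.1 in R 4.3.3 on log2(FPKM + 1), with a mean-variance trend, for genes that reached 0.5 FPKM in at least 3 samples, and with Benjamini-Hochberg adjustment over all of them. Such fold changes understate the change of low genes. The study describes 3 biological replicates per group. An exact permutation test of 3 against 3 samples could not go below p = 0.1 and was not used. The test recovered 139 of 200 changed genes on simulated data for the 16321 genes of this comparison. The members and gene lists were chosen with earlier results of these data known. All 10 members and BRCA1 were named, with up to 3 further genes per list, those of smallest adjusted p-value below 0.05, the highest marker of each marker list and the 5 genes nearest to BIRC3. Of the genes this took, 1 is not reported here. Other genes of the BCL2 and IAP classes, marker genes at 0 or called, and genes overlapping a member were added to the text with their values known. Promoters came from RefSeq (GRCh38.p14), and protein sequences were not used here. Tables and plots were made in Python 3.11.15 (pandas 2.3.3, numpy 2.4.6, matplotlib 3.10.9).

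The alternatives were a filter of 1 FPKM or none, a pseudocount of 0.1, scaling by the median of ratios or to nuclear protein-coding genes, the replicate number as a block, voom on estimated fragments, the highest transcript of each gene and each sample left out in turn.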

Additional observations from a re-analysis of the deposited data

How the results depend on the processing

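BIRC3, MCL1 and BRCA1 kept their direction and call in all 14 alternatives. With a pseudocount of 0.1 the DEG criterion was met by 764 genes that were higher and 516 that were lower, in place of 472 and 179, and with voom on estimated fragments by 817 and 535. With the highest transcript in place of the gene, which also moved the adjustment from 16321 genes to 50925 transcripts, 2 members were called higher and 0 lower by the adjusted p-value (limma), 1 member was higher by the DEG criterion, and 913 genes were higher and 672 lower by the adjusted p-value, in place of 2674 and 3090. The genes counted in this setting were also fewer, 15614 in place of 16321. At an unadjusted p below 0.05, 3 members were higher and 2 lower with the highest transcript, and which of these changes lowered the counts was not tested. The number of members lower by the DEG criterion was 0 with limma and 0 with voom. At an unadjusted p below 0.05 with the same fold change it was 0 with both for genes and 1 (BBC3, log2 fold change -1.13) for the highest transcript. BAK1 ranged from -0.02 to 0.21 with a sample left out, and it turned from 0.09 to -0.02 without NC replicate 3 (limma adjusted p = 0.921).

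With each sample left out in turn, 4 members were called higher throughout and 1 to 3 lower. The genes called ranged from 2109 to 2224 higher and 2279 to 2541 lower by the adjusted p-value, and from 476 to 486 higher and 166 to 219 lower by the DEG criterion. With 2 samples in a group, the spread is assumed to be that of both groups together.

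Samples with the same number did not deviate together (correlations of -0.024, 0.025 and 0.014), so the numbers do not pair the samples. With the replicate number as a block, 1 member was called lower, since BBC3 had an adjusted p of 0.0605. Depth limited BCL2 and BCL2A1, which rest on fewer than 20 estimated fragments per sample.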
